A study of Mus musculus with 6 samples.

Results

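Solute carriers are the largest superfamily of membrane transporters in mammals and are named by gene family, from Slc1 upwards. Here they were taken as every gene whose symbol starts with Slc and a digit, without 6 carriers of glutamate, hexoses and lactate (Slc1a2, Slc1a3, Slc2a1, Slc2a3, Slc2a5 and Slc16a3). This rule found 197 of the 11881 genes listed for sorted hippocampal microglia. Of these, 4 (Slc4a1ap, Slc7a6os, Slc9a3r1 and Slc9a3r2) are named after a carrier without being one, and they were kept as a class of their own. Expression was measured by RNA-seq in 3 libraries labelled Mll5+/- and 3 libraries labelled WT. The microglia, brain-resident macrophages, were sorted as CD11b+ and CD45low from male mice aged between postnatal days 17 and 21. The Mll5+/- mice are heterozygous for Mll5 (now Kmt2e), a gene of the MLL family, and the labels name no promoter or cell type that would limit the change. Neither the altered stretch of the gene nor the strain is given in the sources used here, and nothing says that animals were pooled.

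A carrier binds its solute on one side of a membrane, changes shape and releases it on the other, and many carriers use a sodium, proton or chloride gradient to move the solute uphill. Plasma membrane carriers bring in amino acids, metals, inositol and taurine. Mitochondrial carriers of the Slc25 family exchange metabolites and metals across the inner membrane, and Slc35 carriers bring activated sugars and sulfate into the Golgi. In macrophages a further set sits in the lysosome and exports the amino acids, nucleosides and metals that digestion of engulfed material sets free.

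The libraries labelled Mll5+/- held 25247504, 28053173 and 21075570 counts, and those labelled WT held 23884734, 25912809 and 29730400. At these depths 3 counts correspond to between 0.104 and 0.142 CPM, counts normalised to depth at library sizes scaled by TMM, and this limit covers counting error only. Kmt2e had 648, 298 and 513 CPM in libraries labelled Mll5+/-, against 479, 378 and 687 CPM in libraries labelled WT. Its edgeR log2 fold change was -0.08 with a 95% interval from -0.79 to 0.63 (unadjusted p = 0.799), so the loss of a copy did not show in the whole-gene count, and genotypes are given as labelled. All 10 microglia markers were counted. Their summed level was 7437 to 8524 CPM in libraries labelled Mll5+/- and 9222 to 13407 CPM in libraries labelled WT, without overlap. Most of that gap was P2ry12, with 1115, 1231 and 1086 CPM under the Mll5+/- label and 4266, 1366 and 5496 CPM under the WT label. Tmem119 lay the other way, also without overlap, with 222, 232 and 222 CPM under the Mll5+/- label and 197, 221 and 204 CPM under the WT label. Summed astrocyte markers (7 of 12 listed, with no values for Gfap and Aldh1l1) were 15.1 to 32.6 CPM in libraries labelled Mll5+/- and 61.0 to 81.8 CPM in those labelled WT. Summed border macrophage markers (6 of 7) were 368 to 692 CPM in libraries labelled Mll5+/- and 265 to 328 CPM in those labelled WT, but the most abundant of them, Stab1 and Mrc1, overlapped between genotypes. Summed oligodendrocyte markers (6 of 8) were 98.1 to 135 CPM in libraries labelled Mll5+/- and 140.2 to 185 CPM in those labelled WT. Summed choroid plexus and ependymal markers (2 of 6, Ttr and Enpp2) were 0.473, 17.3 and 313 CPM in libraries labelled Mll5+/-. Under the WT label they were 35.8, 32.9 and 186 CPM, so the genotypes overlapped and Mll5+/- replicate 3 had the most. Summed neuron markers (6 of 12) and endothelial and mural markers (2 of 9) overlapped between genotypes as well. In a bulk library, fewer cells of a type and less RNA per cell cannot be told apart, and the part of these markers in the values that follow was not tested.

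Most carriers were expressed at a low level. Of the 197 members, 20 had a mean of at least 100 CPM over the 6 libraries, 84 lay between 10 and 100 CPM, 77 between 1 and 10 CPM and 16 below 1 CPM. The median member had 10.7 CPM. Per kilobase of transcript the median was 3.24 CPM for the members and 5.29 CPM for all listed genes. The 10 most abundant members held 59.8% of the members' summed CPM, while the members together took between 1.11% and 1.23% of a library. A count was found in all 6 libraries for 141 members. The library labelled Mll5+/- replicate 3 had 33 members at 0, the most of the 6, against 10 to 21 in the other 5.

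Zinc and mitochondrial carriers headed the list. Slc39a1, which encodes the zinc importer ZIP1 (chr3:90155479-90160919, mm39), had 2432, 3672 and 2844 CPM in libraries labelled Mll5+/-, against 1891, 2518 and 3594 CPM in libraries labelled WT. Per kilobase it averaged 1195 CPM and ranged from 800.1 to 1553 CPM over the 6 libraries. Slc25a36 (chr9:96957014-96993210), a mitochondrial carrier of pyrimidine nucleotides, came next with an average of 253 CPM per kilobase and a range of 149 to 438, which lies wholly below that of Slc39a1. Its libraries spread widely in both genotypes, with 1796, 777 and 779 CPM under the Mll5+/- label and 2288, 781 and 1515 CPM under the WT label. Slc25a37, mitoferrin 1, carries iron into mitochondria and was the third per kilobase at 119.7 CPM, with a range of 113 to 125. Slc9a9, a sodium-proton exchanger of endosomes, averaged 114 CPM per kilobase, and its range of 99.3 to 133 spans that of Slc25a37, so the order of these neighbours was not larger than their spread. The chloride importer Slc12a2 (NKCC1) averaged 85.3 CPM per kilobase, the mitochondrial phosphate carrier Slc25a3 74.5 and the lysosomal nucleoside carrier Slc29a3 72.0. The ranges over libraries of these 3 carriers overlapped as well.

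**Figure D1:**
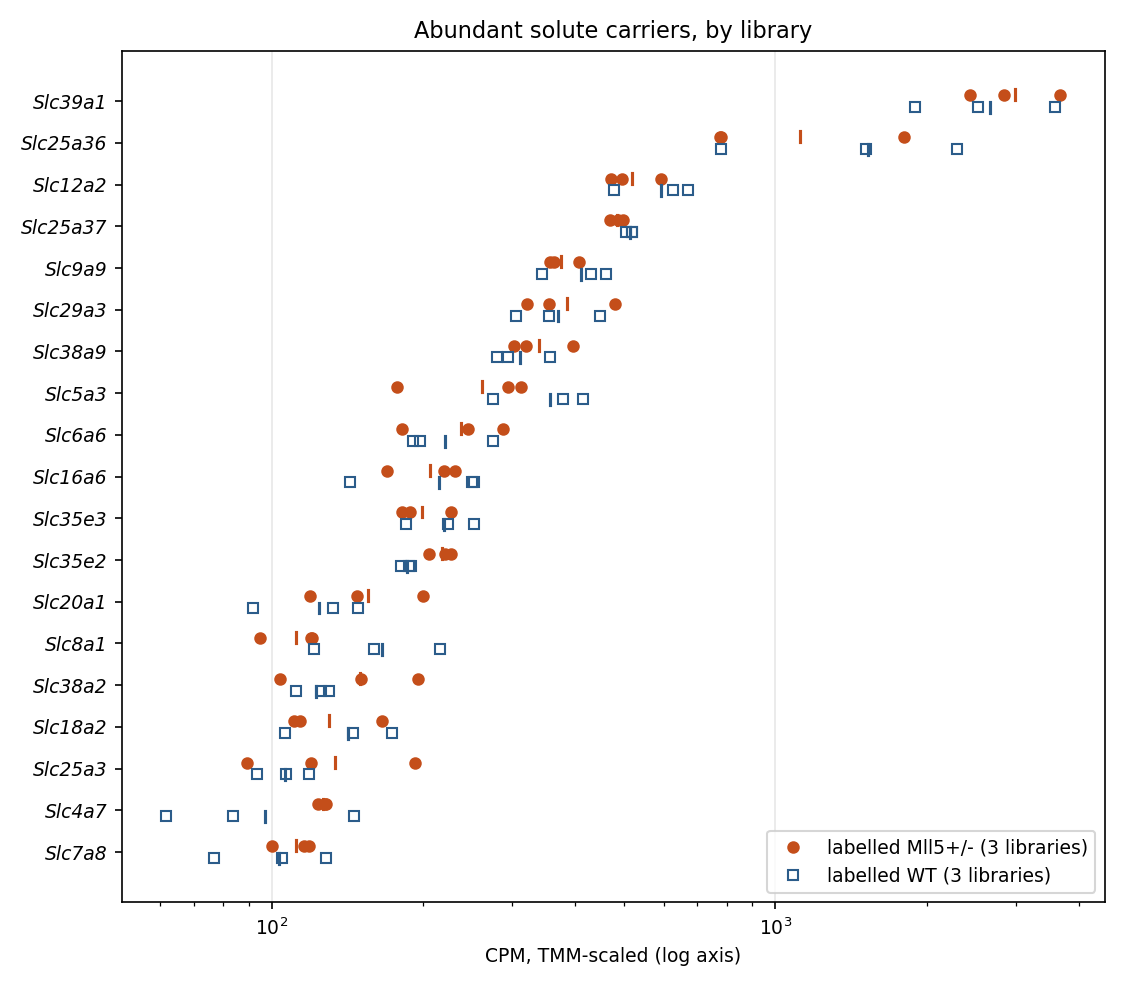
Level of abundant solute carriers per library in CPM on a log axis, with libraries labelled Mll5+/- as filled circles, libraries labelled WT as open squares and the mean of each genotype as a short line. The points of Slc39a1 lie above those of nearly every other carrier and the genotypes overlap for most genes.

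Fitted differences between genotypes were small among the abundant carriers. All 20 tested members with at least 100 CPM had a log2 fold change below 1 in size, the largest being 0.57, and 98.3% of all tested genes at that level did so too. Slc39a1 averaged 2983 ± 632 CPM under the Mll5+/- label and 2668 ± 861 CPM under the WT label (SD, n = 3 each), a log2 fold change of 0.16 with a 95% interval from -0.39 to 0.72 in edgeR. For Slc12a2 the averages were 519.7 ± 63.6 and 592 ± 100.5 CPM (libraries labelled Mll5+/- and WT, SD, n = 3 each) and the interval ran from -0.62 to 0.24. Slc29a3, which lets nucleosides out of the lysosome, had 481, 321 and 354 CPM in libraries labelled Mll5+/- and 448, 355 and 306 CPM in those labelled WT. Slc38a9, the lysosomal arginine sensor that signals to mTORC1, had 303, 320.0 and 397 CPM under the Mll5+/- label and 279.9, 295 and 357 CPM under the WT label. The values of both genes interleaved, and edgeR's intervals for their log2 fold changes were -0.45 to 0.57 for Slc29a3 and -0.31 to 0.57 for Slc38a9. Intervals of this width leave out a 2-fold difference but not a smaller one. Not every abundant carrier was fixed as closely. The edgeR log2 fold change of Slc25a36 was -0.45 and became -0.99 without Mll5+/- replicate 1, so a 2-fold difference was not left out for it.

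Of the other abundant carriers, Slc6a6, the taurine importer, had 182, 287 and 245 CPM in libraries labelled Mll5+/- and 191, 197 and 275 CPM in libraries labelled WT. Slc16a6, of the monocarboxylate transporter family, had 219, 169 and 231 CPM under the Mll5+/- label and 250.2, 252 and 143 CPM under the WT label. The groups overlapped for both. The Slc16a6 gene shares 1519 bases with the listed gene Amz2 and 221 bases with Arsg. Slc5a3, the sodium-coupled inositol importer that cells use against osmotic stress, had 295, 312 and 177 CPM in libraries labelled Mll5+/- and 416, 379 and 275 CPM in libraries labelled WT (edgeR log2 fold change -0.45, SE 0.264, unadjusted p = 0.125). Its gene lies wholly within the span of Mrps6 (29152 shared bases), and Mrps6 itself averaged 1.65 CPM under the Mll5+/- label and 0.999 CPM under the WT label. Slc20a1, a sodium-coupled phosphate importer, had 119, 148 and 200.02 CPM under the Mll5+/- label and 133, 149 and 91.8 CPM under the WT label. Slc35e3 and Slc35e2 belong to the nucleotide sugar transporter family. Slc35e3 averaged 199 ± 24.3 CPM under the Mll5+/- label and 220.1 ± 34.1 CPM under the WT label (SD, n = 3 each). Slc35e2 had 227, 205 and 221 CPM in libraries labelled Mll5+/-, all above the 180.3, 189 and 188 CPM of libraries labelled WT, but the distance was small (log2 fold change 0.23, SE 0.183, unadjusted p = 0.239 in edgeR).

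No solute carrier passed the test between genotypes. With edgeR's quasi-likelihood test and Benjamini-Hochberg adjustment over all 10832 tested genes, 0 of the 183 tested members had an adjusted p below 0.05, and neither did any other gene (0%). The smallest adjusted p was 0.9995. The other 14 members had too few counts to be tested. DESeq2 gave 0 of 188 members an adjusted p below 0.05, beside 29 genes in all (0.255% of those with an adjusted p), and limma-voom gave 0. At an unadjusted edgeR p below 0.05 there were 8 members, 4.37% of those tested, beside 2.88% of all tested genes. Of these 8, 7 had the higher level in libraries labelled Mll5+/- (3.83% of members, 1.36% of all genes) and 1 the lower (0.546% of members, 1.52% of all genes). The count of 7 became 3 without Mll5+/- replicate 3 and 3 without WT replicate 2, with 3 to 7 over the 6 left-out libraries, so it rests on single libraries. The unadjusted count was 13 in DESeq2 (6.91%, beside 4.87% of all genes) and 10 in limma-voom (5.46%, beside 4.31%).

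The 3 values of one genotype did not overlap those of the other for 17 members, 9.29%, beside 9.32% of all tested genes. The higher values were under the Mll5+/- label for 11 of them (6.01%, beside 4.68%) and under the WT label for 6 (3.28%, beside 4.64%). The median log2 fold change was -0.06 over the members and 0.02 over all tested genes, and 86 members (47.0%, beside 51.8% of all genes) had a positive value. These shares lie close to those of all genes.

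**Figure D2:**
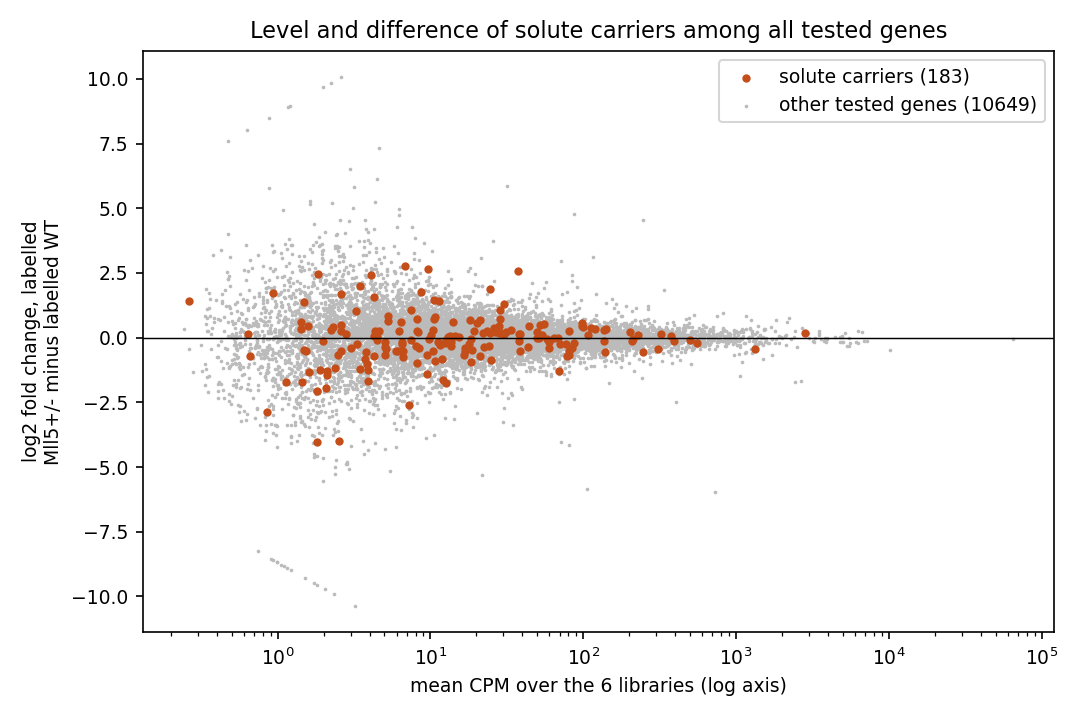
Mean level of each tested solute carrier in CPM (log axis) against its edgeR log2 fold change, libraries labelled Mll5+/- over libraries labelled WT, with all other tested genes behind in grey. The carriers lie within 1 at 100 CPM and above and between -4.04 and 2.77 over all levels.

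The width of the spread followed the level. Of the 79 tested members below 10 CPM, 31 had a log2 fold change of at least 1 in size, beside 37.7% of all such genes, so large folds among rare carriers were common in either list. Single libraries carried several of them. Slc7a11, the cystine-glutamate exchanger of the oxidative stress response, had 0.118, 0.281 and 21.2 CPM under the Mll5+/- label and 0.376, 0 and 0.243 CPM under the WT label. Slc12a7, the potassium-chloride exporter KCC4, had 0.118, 0.772 and 0 CPM under the Mll5+/- label and 0.627, 0 and 13.7 CPM under the WT label. The thiamine importer Slc19a2 had 1.14, 1.68 and 3.31 CPM under the Mll5+/- label and 2.26, 2.81 and 32.2 CPM under the WT label. In each of these genes 1 library held most of the counts. In 20 of 183 members (10.9%) a single library held over 50% of the summed CPM, beside 8.24% of all tested genes.

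By substrate, metal and heme carriers took 29.3% of the members' CPM, most of it Slc39a1. Mitochondrial carriers took 21.0%, amino acid carriers 9.61%, cation-chloride cotransporters 7.69%, Slc35 carriers 5.74% and sodium exchangers 5.12%. Each of the other classes took less than that. The class medians of the log2 fold change lay between -0.42 for mitochondrial carriers and 0.24 for sodium exchangers, among classes with at least 5 tested genes. Of 36 tested mitochondrial carriers, 25 had a negative value, 1 had an unadjusted edgeR p below 0.05 on the higher side and 0 on the lower. Among all tested genes 51.8% had a positive value, and 1.36% had such a p on the higher and 1.52% on the lower side. The mitochondrial carriers with at least 10 CPM had a median of -0.12, beside 0.01 for all members at that level. The 4 sodium exchangers at that level had a median of -0.06, with 2 positive and 2 negative values, so the sign of that class rests on its rare members.

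**Figure D3:**
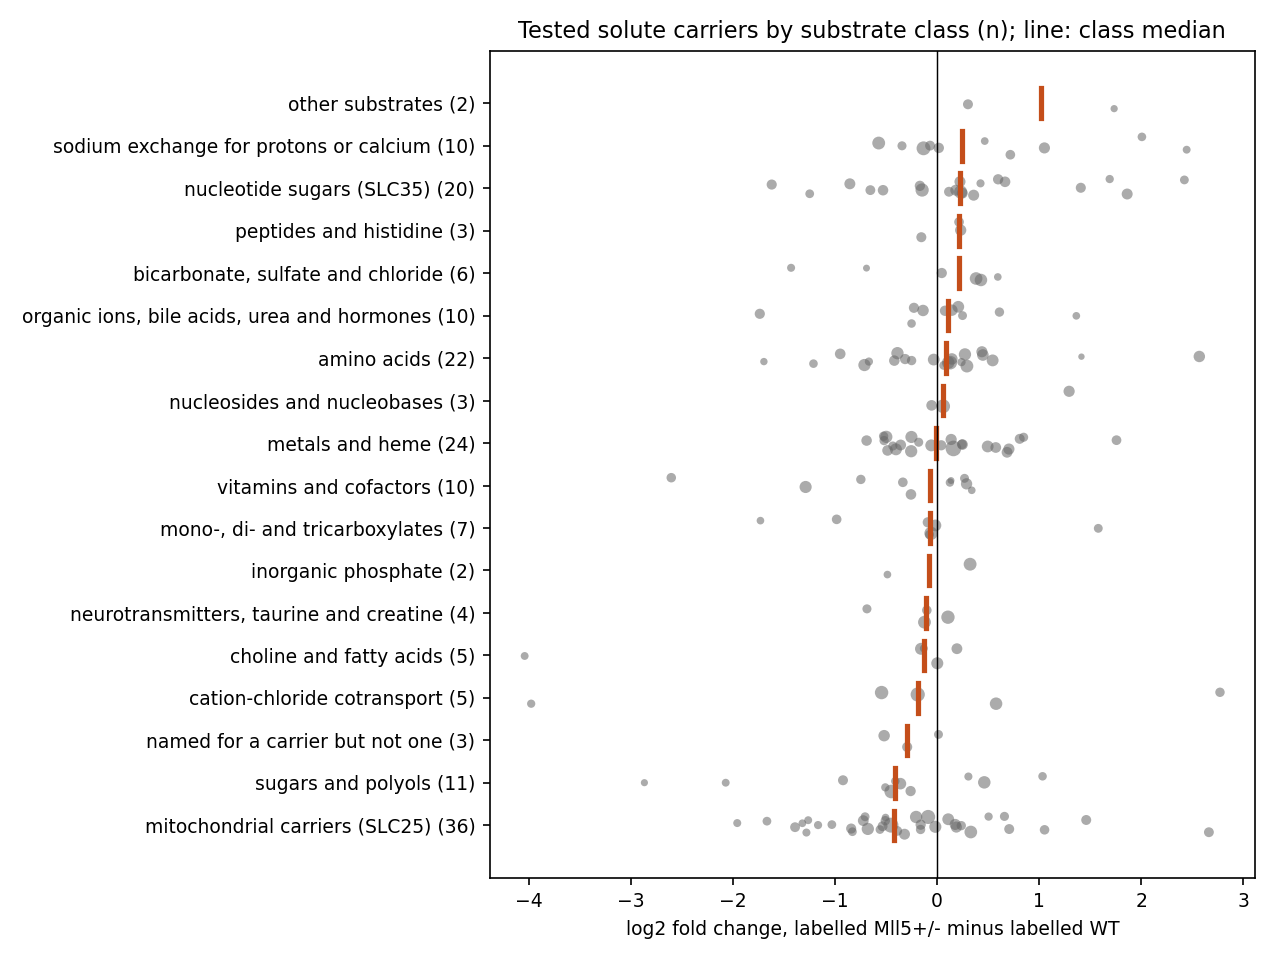
Log2 fold change, libraries labelled Mll5+/- over libraries labelled WT, of each tested carrier by substrate class, with larger points for higher mean CPM and a line at each class median. Among classes with at least 5 tested genes the medians run from -0.42 for mitochondrial carriers to 0.24 for sodium exchangers, and the points of every large class lie on both sides of 0.

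Lysosomal carriers are the ones a phagocyte uses to empty its digestive compartment. Of 20 such genes listed, 19 were counted and tested. Their summed level was 1690.0, 1549 and 1667.5 CPM in libraries labelled Mll5+/- and 1616, 1485 and 1584 CPM in libraries labelled WT, which overlap. Of the 19, 11 had a positive and 8 a negative log2 fold change with a median of 0.13, and 2 had an unadjusted edgeR p below 0.05, both on the higher side, beside 2.88% of all tested genes in either direction and 1.36% on the higher side. The values of 4 carriers were all higher in the libraries labelled Mll5+/- (Slc36a1, Slc12a9, Slc38a7 and Slc11a1) and those of 1 were all lower (Slc46a3), beside 4.68% of all tested genes on the higher and 4.64% on the lower side.

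The promoters of the 4 carriers on the higher side are shown because many lysosomal genes share a CLEAR element, which the transcription factor TFEB binds and whose core is the palindrome CACGTG. Each line is the RefSeq window (GRCm38.p6) from 250 bases before to 50 bases after the gene's start, 5′ to 3′ on the gene's strand, with CACGTG in capitals. The windows are chr11:55204090-55204389 (plus strand) for Slc36a1, chr5:137333533-137333832 (minus strand) for Slc12a9, chr8:95853442-95853741 (minus strand) for Slc38a7 and chr1:74374953-74375252 (plus strand) for Slc11a1.
Slc36a1: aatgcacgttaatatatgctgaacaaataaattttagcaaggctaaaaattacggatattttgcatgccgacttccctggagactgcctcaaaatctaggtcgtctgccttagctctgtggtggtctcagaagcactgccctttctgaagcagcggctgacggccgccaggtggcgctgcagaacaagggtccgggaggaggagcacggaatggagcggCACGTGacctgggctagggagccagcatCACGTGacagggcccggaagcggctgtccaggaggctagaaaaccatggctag
Slc12a9: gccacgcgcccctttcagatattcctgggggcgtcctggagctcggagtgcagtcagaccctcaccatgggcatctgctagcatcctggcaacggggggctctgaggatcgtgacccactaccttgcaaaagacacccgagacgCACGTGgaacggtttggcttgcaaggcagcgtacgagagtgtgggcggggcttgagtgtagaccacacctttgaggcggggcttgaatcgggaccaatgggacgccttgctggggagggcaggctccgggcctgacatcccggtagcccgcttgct
Slc38a7: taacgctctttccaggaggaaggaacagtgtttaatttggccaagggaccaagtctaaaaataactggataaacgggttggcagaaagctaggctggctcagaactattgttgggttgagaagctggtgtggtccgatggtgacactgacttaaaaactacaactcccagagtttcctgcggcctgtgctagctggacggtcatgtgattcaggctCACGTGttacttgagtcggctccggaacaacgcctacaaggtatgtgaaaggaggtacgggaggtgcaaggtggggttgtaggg
Slc11a1: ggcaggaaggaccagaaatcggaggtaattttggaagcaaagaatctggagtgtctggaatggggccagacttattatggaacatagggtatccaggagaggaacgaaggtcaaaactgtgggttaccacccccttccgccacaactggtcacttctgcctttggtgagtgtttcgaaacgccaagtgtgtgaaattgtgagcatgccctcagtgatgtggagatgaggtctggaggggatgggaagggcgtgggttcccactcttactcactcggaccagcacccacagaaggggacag
The Slc36a1 window holds the motif at 2 places, those of Slc12a9 and Slc38a7 at 1 each, and that of Slc11a1 at 0. The wider palindrome TCACGTGA, which contains CACGTG, occurs in the Slc36a1 window once and in none of the others. CACGTG stood in 4 of 15 lysosomal carriers with a window (26.7%) and in 27 of 148 members (18.2%). Of all 27025 genes with such a window, 8.09% held it. TCACGTGA stood in 1 of 15, in 4 of 148 and in 1.125% of all. The other motifs searched were also more frequent in members than in all genes with a window. A metal response element (TGCGCNC) stood in 30.4% of members and 17.04% of all, and its A form (TGCACNC) in 22.3% and 14.2%. An ATF4 element (TGATGCAA) stood in 2.03% and 1.03%. In lysosomal carriers these stood in 2, 5 and 0 of 15, in that order. The 27025 genes were not limited to the listed ones, and whether CACGTG is specific to carriers was not tested. The other lysosomal carrier with CACGTG, named after its values were seen, was the zinc and manganese importer Slc39a8, which was not on the higher side. It had 26.6, 9.86 and 1.79 CPM under the Mll5+/- label and 14.5, 23.3 and 23.8 CPM under the WT label, which overlap. The window of Slc46a3, on the lower side, holds CACGTG at 0 places. A match is a description of letters and was not tied to binding in these cells. The 4 windows were picked by the values of their genes, and a part of TFEB in these values was not tested.

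Slc36a1, a proton-coupled exporter of small amino acids from the lysosome (chr11:55095176-55127156, mm39), had 37.8, 44.7 and 110.3 CPM in libraries labelled Mll5+/-, against 3.51, 25.0 and 3.95 CPM in libraries labelled WT. All 3 libraries labelled Mll5+/- lay above all 3 labelled WT. The log2 fold change was 2.57 (SE 0.850, 95% interval 0.62 to 4.52, unadjusted p = 0.016 in edgeR), and DESeq2's adjusted p was 0.140. Without Mll5+/- replicate 3 the edgeR value was 1.93 with an unadjusted p of 0.0560, and without WT replicate 2 it was 4.08 with an unadjusted p of 0.000258 and an adjusted p of 0.962. Slc12a9, of the cation-chloride cotransporter family (chr5:137312820-137331860), had 115, 134 and 106 CPM under the Mll5+/- label and 90.4, 78.3 and 68.6 CPM under the WT label. Its log2 fold change was 0.58 (SE 0.242, unadjusted p = 0.0411 in edgeR), and with single libraries left out it ranged from 0.47 to 0.67 with unadjusted p up to 0.137. Its window holds 1 CACGTG, as that of Slc38a7 does.

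Slc38a7, a lysosomal glutamine exporter, had 64.1, 72.2 and 59.4 CPM under the Mll5+/- label and 58.7, 39.2 and 36.2 CPM under the WT label. The lowest library labelled Mll5+/- was only just above the highest labelled WT, and the edgeR log2 fold change was 0.55 (SE 0.313, unadjusted p = 0.116). Slc11a1 encodes NRAMP1, which pumps iron and manganese out of phagosomes. It had 61.0, 63.4 and 57.3 CPM under the Mll5+/- label and 45.8, 28.8 and 54.2 CPM under the WT label (log2 fold change 0.50, SE 0.330, unadjusted p = 0.167 in edgeR). The summed border macrophage markers did not overlap between genotypes either, as given above, although 0 of the single markers were without overlap on the higher side. Slc46a3, a lysosomal protein of the folate carrier family (chr5:147815250-147831620), had 18.8, 19.2 and 83.7 CPM under the Mll5+/- label and 87.6, 110.1 and 99.2 CPM under the WT label. Replicates 1 and 2 labelled Mll5+/- were far below the libraries labelled WT, while replicate 3 lay close to them. The log2 fold change was -1.29 (SE 0.573, unadjusted p = 0.0522 in edgeR). Without Mll5+/- replicate 3 it was -2.39 with an unadjusted p of 8.25e-05 and an adjusted p of 0.185, and with any other library left out the unadjusted p stayed above 0.05, up to 0.133. DESeq2 gave it an unadjusted p of 0.0269 and limma-voom 0.00128, both with an adjusted p above 0.05.

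**Figure D4:**
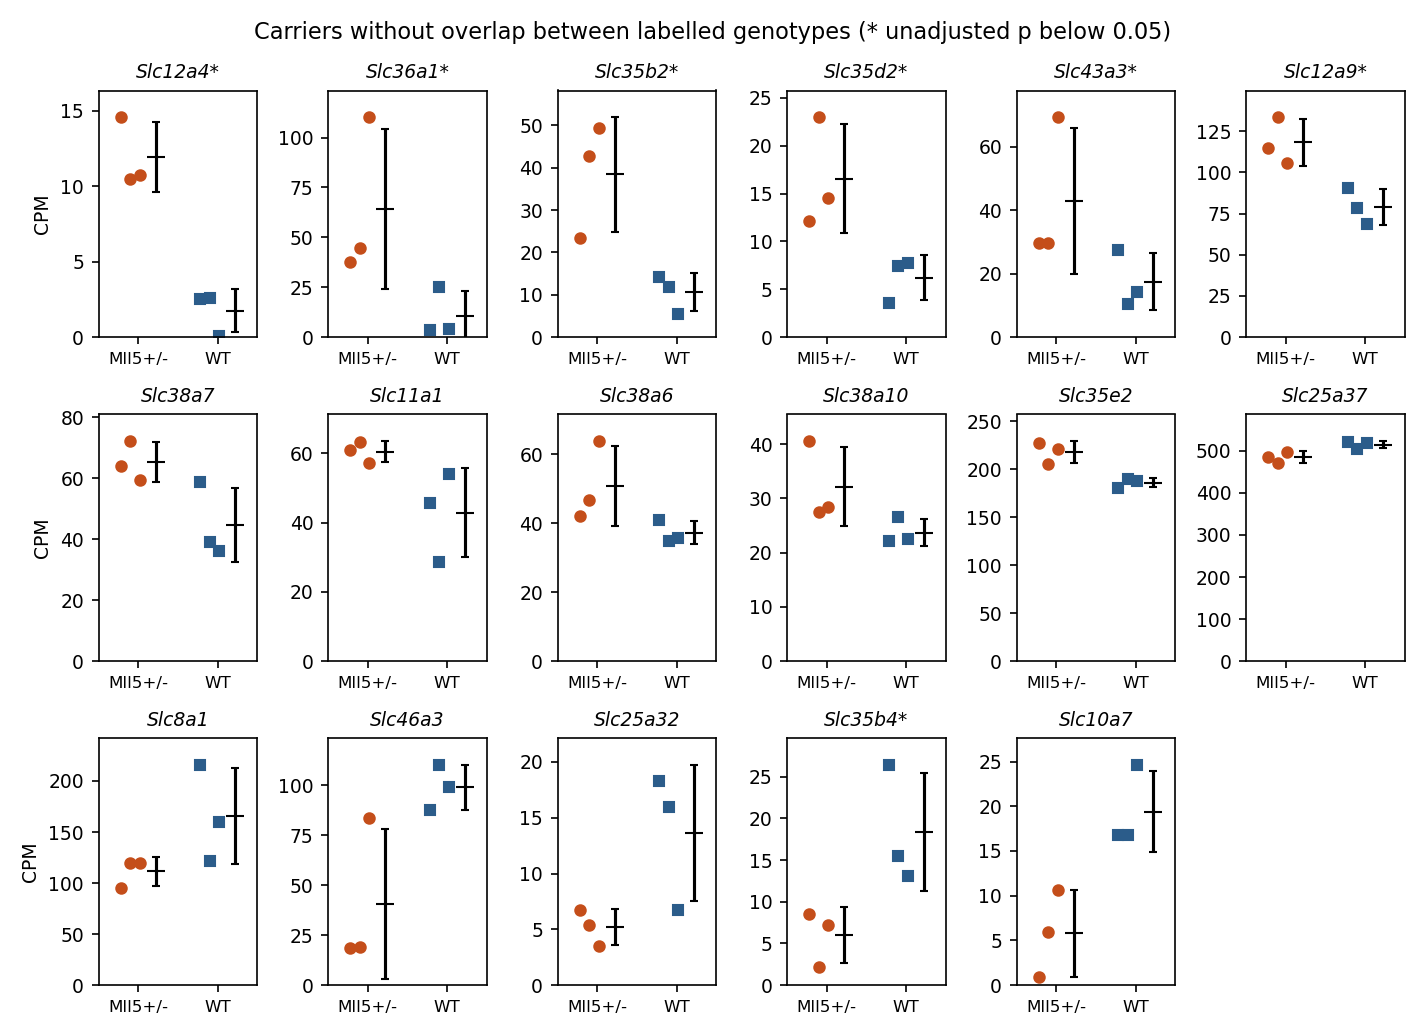
CPM per library of the 17 solute carriers whose genotypes did not overlap, one panel per gene with an asterisk at an unadjusted edgeR p below 0.05, libraries labelled Mll5+/- left of libraries labelled WT. Bars give the mean ± SD of 3 libraries and end at 0 where they would go below it; the lowest library labelled Mll5+/- of Slc36a1, at 37.8 CPM, stands above the highest labelled WT, at 25.0 CPM.

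Golgi carriers of activated sugars and sulfate gave the member of smallest p. Slc35b2, which brings the sulfate donor PAPS into the Golgi for sulfation of glycans and proteins (chr17:45874800-45878597), had 23.3, 42.7 and 49.4 CPM in libraries labelled Mll5+/-, against 14.2, 11.9 and 5.58 CPM in libraries labelled WT. Every library labelled Mll5+/- was above every library labelled WT. Its average was 38.5 ± 13.6 CPM under the Mll5+/- label and 10.6 ± 4.48 CPM under the WT label (SD, n = 3 each), a log2 fold change of 1.86 (SE 0.518, 95% interval 0.69 to 3.04, unadjusted p = 0.00599 in edgeR). DESeq2's adjusted p was 0.147. The unadjusted p stayed below 0.05 in all alternatives run, with at most 0.0212 over left-out libraries. Slc35d2, another carrier of nucleotide sugars, had 12.2, 23.02 and 14.5 CPM under the Mll5+/- label and 3.55, 7.42 and 7.73 CPM under the WT label (log2 fold change 1.41, SE 0.613, unadjusted p = 0.0477 in edgeR). Its unadjusted p exceeded 0.05 with each of the 6 libraries left out, reaching 0.191. Slc35b4, a carrier of UDP-xylose and UDP-N-acetylglucosamine, was the 1 member with an unadjusted p below 0.05 on the lower side. It had 8.56, 2.18 and 7.18 CPM under the Mll5+/- label and 26.4, 15.5 and 13.1 CPM under the WT label (log2 fold change -1.62, SE 0.684, unadjusted p = 0.0428 in edgeR), and its unadjusted p was 0.173 without Mll5+/- replicate 2. The class as a whole had 13 positive and 7 negative values among 20, with a median of 0.23, beside 51.8% positive among all tested genes.

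A potassium-chloride exporter and a nucleobase carrier were also under the unadjusted threshold. Slc12a4, the potassium-chloride exporter KCC1, had 14.6, 10.5 and 10.7 CPM under the Mll5+/- label and 2.55, 2.58 and 0.104 CPM under the WT label. The groups did not overlap, with a log2 fold change of 2.77 (SE 1.11, unadjusted p = 0.0351 in edgeR). The value of WT replicate 3 lies at the level of 3 counts, and without that library the log2 fold change was 2.21. The edgeR unadjusted p was above 0.05 in 5 of the 6 fits with 1 library left out, reaching 0.0931. Slc43a3, a nucleobase carrier, had 29.6, 29.6 and 69.3 CPM under the Mll5+/- label and 27.5, 10.6 and 14.3 CPM under the WT label. Its log2 fold change of 1.29 (SE 0.530, unadjusted p = 0.0379 in edgeR) became 0.75 with an unadjusted p of 0.191 without Mll5+/- replicate 3.

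Cation-chloride cotransporters of the cell surface set the chloride level of a cell, importers such as Slc12a2 filling it and exporters such as Slc12a4 and Slc12a7 emptying it. Of the 5 tested members of the family, 2 had a positive value with an unadjusted edgeR p below 0.05, beside 1.36% of all tested genes, and 3 had a negative value. The 2 were Slc12a4 and Slc12a9, and Slc12a9 is also listed with the lysosomal carriers, so it is not counted as a carrier that sets cell chloride. Per kilobase Slc12a2 had a mean of 85.3 CPM and Slc12a9 one of 29.6 CPM.

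Among sodium exchangers, Slc9a9 had 364, 408 and 356 CPM under the Mll5+/- label and 431, 344 and 461 CPM under the WT label, which overlap. Slc8a1, the sodium-calcium exchanger NCX1, had 95.01, 120.0 and 119.5 CPM in libraries labelled Mll5+/-, all below the 216, 122 and 159.7 CPM of libraries labelled WT. The gap between the nearest libraries was small, and the log2 fold change was -0.57 (SE 0.268, unadjusted p = 0.0624 in edgeR). Without WT replicate 2 it was -0.77 with an unadjusted p of 0.0252, and 161 of its bases overlap the listed gene Gm11096. Slc4a7, a sodium-bicarbonate importer that raises cell pH, had 128, 124 and 128 CPM under the Mll5+/- label and 61.8, 84.0 and 146 CPM under the WT label. The values labelled WT enclosed those labelled Mll5+/-, and without WT replicate 3 the log2 fold change was 0.79, with an edgeR unadjusted p of 0.0193, against 0.38 with all libraries.

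Slc25a37 (chr14:69479297-69522561) had 486, 470.5 and 498 CPM in libraries labelled Mll5+/- and 520.0, 505 and 519.7 CPM in libraries labelled WT. The groups did not overlap, but the averages of 485 ± 13.7 and 515 ± 8.71 CPM (libraries labelled Mll5+/- and WT, SD, n = 3 each) gave a log2 fold change of -0.09 only (SE 0.151, unadjusted p = 0.580 in edgeR). Slc25a36 had a value of -0.45 (SE 0.483) that became -0.99, with an edgeR unadjusted p of 0.0475, without Mll5+/- replicate 1. Slc25a32, which brings folate into mitochondria, had 6.74, 5.37 and 3.50 CPM under the Mll5+/- label and 18.3, 15.9 and 6.76 CPM under the WT label, without overlap (log2 fold change -1.39, SE 0.678, unadjusted p = 0.0712 in edgeR). Of the ADP-ATP exchangers, Slc25a5 averaged 43.4 CPM per kilobase. It had 50.7, 48.5 and 68.2 CPM under the Mll5+/- label and 41.5, 56.5 and 57.0 CPM under the WT label, which overlap. Slc25a3, which supplies phosphate for ATP synthesis, had 89.3, 192 and 119 CPM under the Mll5+/- label and 119, 107 and 93.4 CPM under the WT label. Slc25a46, an outer membrane protein of mitochondrial fission and fusion, had 141, 71.9 and 31.8 CPM under the Mll5+/- label and 103, 115 and 63.3 CPM under the WT label. The genotypes overlapped for both. Slc25a30 had 57.0, 83.1 and 46.0 CPM under the Mll5+/- label and 66.4, 116 and 115 CPM under the WT label (log2 fold change -0.68, SE 0.340, unadjusted p = 0.0779 in edgeR). Its highest library labelled Mll5+/- lay above its lowest labelled WT.

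Amino acid carriers comprised 23 members, of which 22 were tested, 12 with a positive and 10 with a negative log2 fold change. The heavy chain Slc3a2 (CD98) pairs with light chains such as Slc7a7 and Slc7a8 to exchange amino acids at the cell surface. Slc3a2 had 79.9, 62.4 and 123 CPM under the Mll5+/- label and 72.3, 59.0 and 88.5 CPM under the WT label. Slc7a7 had 80.8, 74.7 and 63.6 CPM under the Mll5+/- label and 80.1, 80.2 and 126 CPM under the WT label, and Slc7a8 had 116, 119 and 100.3 CPM under the Mll5+/- label and 128, 105 and 76.9 CPM under the WT label. Values of all 3 subunits overlapped between genotypes. Per kilobase their means were 44.5, 37.0 and 26.3 CPM. Slc38a2, the sodium-coupled importer of small neutral amino acids, had 151, 195 and 104 CPM under the Mll5+/- label and 129.8, 126 and 112 CPM under the WT label. Slc38a1, its paralog, had 7.37, 132 and 37.6 CPM under the Mll5+/- label and 82.9, 93.2 and 114 CPM under the WT label, and its spread within the Mll5+/- label left an SE of 0.881. Slc38a6 and Slc38a10 of the same family had values without overlap, both higher under the Mll5+/- label. For Slc38a6 these were 41.9, 46.7 and 63.8 CPM against 40.9, 34.9 and 35.8 CPM under the WT label (log2 fold change 0.45, SE 0.320, unadjusted p = 0.194 in edgeR). For Slc38a10 they were 40.6, 27.5 and 28.3 CPM against 22.1, 26.5 and 22.5 CPM under the WT label (log2 fold change 0.44, SE 0.374, unadjusted p = 0.270 in edgeR). In both genes the nearest libraries of the genotypes lay close together.

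Iron leaves the cell through Slc40a1 (ferroportin), which had 84.8, 63.7 and 44.3 CPM under the Mll5+/- label and 77.8, 93.1 and 58.4 CPM under the WT label. Zinc importers other than Slc39a1 had far fewer counts. Slc39a10 had 99.3, 40.6 and 59.4 CPM under the Mll5+/- label and 106, 133 and 42.3 CPM under the WT label, and Slc39a6, its partner in zinc import, had 63.5, 33.1 and 73.8 CPM under the Mll5+/- label and 59.7, 92.2 and 25.3 CPM under the WT label. Both spread widely within each genotype. Slc30a9, of the zinc exporter family, had 70.4, 72.9 and 69.3 CPM under the Mll5+/- label and 90.6, 102 and 60.8 CPM under the WT label, which overlap. Slc39a12, a zinc importer known from astrocytes, had 54.4, 61.8 and 38.6 CPM under the Mll5+/- label and 46.1, 67.2 and 91.3 CPM under the WT label. Slc18a2, the vesicular monoamine carrier known from monoaminergic neurons, was counted in every library, with 166, 114 and 111 CPM under the Mll5+/- label and 145, 173 and 106 CPM under the WT label. Of the 6 carriers listed as neuronal, 0 were among the members, and of 6 listed as astrocytic 4 were, with a summed level of 66.7, 75.3 and 40.0 CPM under the Mll5+/- label and 54.1, 80.7 and 97.3 CPM under the WT label. The astrocytic sum overlapped between genotypes, but most of it was Slc39a12. Of the 4 genes, 1 had a positive and 3 a negative log2 fold change, with a median of -0.55. A sum of mostly 1 gene cannot show whether astrocytic carriers follow the astrocyte markers given above.

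Sugar and polyol carriers comprised 11 tested members, 3 with a positive and 8 with a negative log2 fold change. Of all tested genes, 51.8% had a positive value. Slc37a2, a sugar phosphate carrier of macrophages, had 58.3, 23.3 and 32.1 CPM under the Mll5+/- label and 27.8, 65.5 and 52.3 CPM under the WT label. Slc45a4 had 12.5, 7.09 and 2.64 CPM under the Mll5+/- label and 19.9, 20.5 and 1.73 CPM under the WT label. Both spread widely and overlapped between genotypes. Sulfate enters cells through Slc26a2, which had 151, 67.5 and 122 CPM under the Mll5+/- label and 104, 90.5 and 57.9 CPM under the WT label. The groups overlapped, and the edgeR log2 fold change was 0.43 with an unadjusted p of 0.260. Of 10 tested vitamin carriers, 5 had a positive and 5 a negative value. The riboflavin importer Slc52a2 had 49.6, 33.8 and 27.4 CPM under the Mll5+/- label and 36.7, 23.9 and 30.0 CPM under the WT label. The ascorbate importer Slc23a2 had 23.02, 15.2 and 10.7 CPM under the Mll5+/- label and 21.2, 18.3 and 18.8 CPM under the WT label. Values of both overlapped between genotypes.

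Other carriers spread widely within a genotype. Slc15a2, an importer of di- and tripeptides, had 96.3, 2.70 and 2.93 CPM under the Mll5+/- label and 23.5, 21.7 and 41.5 CPM under the WT label. Replicate 1 labelled Mll5+/- was above and the other two below all libraries labelled WT. Its edgeR log2 fold change was 0.23 (SE 1.38, unadjusted p = 0.872), and without Mll5+/- replicate 1 it was -3.38 with an unadjusted p of 0.000876 and an adjusted p of 0.896. Slc2a12, a glucose carrier, had 1.89, 135 and 206 CPM under the Mll5+/- label and 20.5, 134 and 94.5 CPM under the WT label. The choline carrier Slc44a1 had 60.1, 90.1 and 43.0 CPM under the Mll5+/- label and 66.5, 54.3 and 72.0 CPM under the WT label, a log2 fold change of 0.00. Slc22a21, a carnitine carrier of mouse with close paralogs beside it, had 48.8, 41.4 and 69.3 CPM under the Mll5+/- label and 51.6, 54.6 and 31.9 CPM under the WT label. Slc49a4 had 6.70, 9.26 and 18.7 CPM under the Mll5+/- label and 9.36, 13.4 and 5.34 CPM under the WT label. Slc10a7, of the bile acid carrier family, had 0.907, 5.93 and 10.6 CPM under the Mll5+/- label and 16.8, 16.8 and 24.6 CPM under the WT label, without overlap (log2 fold change -1.74, SE 0.827, unadjusted p = 0.0659 in edgeR). Slc4a1ap, an adaptor rather than a carrier, had 44.2, 32.7 and 18.0 CPM under the Mll5+/- label and 32.5, 43.7 and 59.5 CPM under the WT label.

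Carriers of the superfamily that have other symbols were set beside the members. Of 38 listed, 31 were tested, with 14 positive and 17 negative log2 fold changes and a median of -0.10. The magnesium carrier Nipa2 had 174, 63.3 and 135 CPM under the Mll5+/- label and 64.3, 54.2 and 29.3 CPM under the WT label (log2 fold change 1.33, SE 0.434, unadjusted p = 0.0136 in edgeR). Ank, which exports pyrophosphate and ATP, had 13.4, 13.6 and 8.03 CPM under the Mll5+/- label and 26.6, 32.5 and 23.9 CPM under the WT label (log2 fold change -1.24, SE 0.451, unadjusted p = 0.0228 in edgeR). Nipa2 values overlapped between genotypes and those of Ank did not. Among 13 tested chaperones and regulators of carriers, 2 log2 fold changes were positive and 11 negative, beside 51.8% positive among all tested genes. Of the 13, 2 had an unadjusted edgeR p below 0.05, both on the lower side, beside 1.52% of all tested genes. This list was drawn up with earlier results of these data known, and it holds the gene of smallest edgeR p, Sgk3. Its counts are therefore a description and not support for a shared direction. Sgk3 is a kinase that raises carrier abundance at the membrane in heterologous cells. It had 10.3, 10.8 and 15.2 CPM under the Mll5+/- label and 55.03, 57.5 and 57.6 CPM under the WT label, with a DESeq2 adjusted p of 0.000111 and an unadjusted edgeR p of 0.000166 (log2 fold change -2.23, SE 0.357). The adjusted p of Sgk3 in edgeR was 0.9995, so edgeR did not call it. Sgk1, its paralog, had 154, 127 and 54.4 CPM under the Mll5+/- label and 192, 199.6 and 252 CPM under the WT label (log2 fold change -0.94, SE 0.363, unadjusted p = 0.0296 in edgeR). Both kinases were lower in every library labelled Mll5+/-. A link between their levels and those of the carriers was not tested, and RNA counts do not measure carrier abundance at the membrane.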

How the data were processed

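Genes were counted in 6 libraries of sorted microglia, 3 per genotype, which were taken as separate mice because the labels number them separately; p-values measure the spread between these libraries. The authors deposited whole-number counts per gene with mm39 coordinates. The tools were STAR, StringTie, DESeq2 and FastQC per the submitters' processing notes. The sources used here do not say how, or on which strand, reads were counted, so reads of overlapping genes (23 members overlap another listed gene) cannot be told apart. Per the labels' protocols, RNA was amplified by SMART-seq, without molecular identifiers.

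Genes were filtered with filterByExpr (minimum count 10, total 15), scaled by TMM and tested with edgeR 4.0.16 (quasi-likelihood, robust; R 4.3.3), labelled Mll5+/- minus labelled WT, two-sided, Benjamini-Hochberg over all 10832 tested genes. DESeq2 1.42.0 and limma-voom 3.58.1 with sample weights were alternatives, as were other size factors and filters and leaving out each library. Transcript lengths came from GENCODE (197 of 197 members). The script was tested on simulated data. Named carriers were the 15 of highest mean CPM, each class's leader, those at unadjusted p below 0.05, those without overlap at 20 CPM or more, and the 5 highest lysosomal ones; others were named after their values were seen. Members and lists were chosen with earlier results of these data known. Some carriers that this rule names are not reported here.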

Additional observations from a re-analysis of the deposited data

How the results depend on the processing

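With 3 libraries per genotype and a biological coefficient of variation of 80.4%, single carriers had a median SE of 0.78 on the log2 scale, so that only large changes could be detected. All genes at an adjusted p below 0.05 numbered 0 in edgeR, 29 in DESeq2, and 0 to 2 with 1 library left out. Carriers at an unadjusted p below 0.05 numbered 8, with 13 in DESeq2 and 6 to 12 with 1 library left out (2.77% to 4.47% of all genes). Those higher under the Mll5+/- label numbered 3 to 7 with 1 library left out. Carriers without overlap numbered 17, and 30 to 45 with 1 library left out, when fewer values have to be apart (17.2% to 20.9% of all genes). The median log2 fold change over all tested carriers stayed between -0.12 and -0.02. Mitochondrial carriers below 0 numbered 25 of 36, 14 of the 23 left by a filter at 5 CPM, and 22 to 27 of 36 or 37 with 1 library left out.

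The sign changed for these carriers, none of which passed the test. Slc44a1 was at -0.01 in DESeq2 (-0.0060), with DESeq2 size factors (-0.0061) and without a filter (-0.012), and from -0.33 to 0.21 with 1 library left out. Slc15a2 was at -1.09 and Slc49a4 at -0.11 in limma-voom. With 1 library left out, Slc15a2 ranged from -3.38 to 0.77, Slc49a4 from -0.24 to 0.63, Slc39a1 from -0.050 to 0.43, Slc29a3 from -0.14 to 0.21, Slc38a9 from -0.0081 to 0.24, Slc6a6 from -0.066 to 0.29, Slc16a6 from -0.28 to 0.054 and Slc22a21 from -0.038 to 0.34. The cause was not tested. No paired analysis was possible because the replicate numbers only follow the order of the samples.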
